A study of Mus musculus with 12 samples.

Results

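The difference between Cthrc1-/- and wild-type (WT) dermis that held both before wounding and 7 days after it was described here, with all 12 samples of the study in use. The mice were of strain C57BL/6 and aged 6 weeks, and the dermis is the connective tissue layer of the skin. Each genotype was sampled on day 0 and on day 7 of a wounding experiment, which gave 4 groups of 3 biological replicates. The labels name neither the deleted part of the gene nor a batch. The 6 Cthrc1-/- samples were compared with the 6 WT samples with day as an additive factor and no interaction term, over the 14313 genes whose mean FPKM (fragments per kilobase, corrected for library size) was at least 1. A gene was apart on both days when its 3 Cthrc1-/- FPKM values all lay above, or all below, the 3 WT values on day 0 and again, in the same direction, on day 7. A gene was called when the edgeR quasi-likelihood test gave an adjusted p under 0.05.

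Cthrc1 encodes a secreted glycoprotein with a short collagen-like repeat. It is made by activated fibroblasts and smooth muscle cells in injured tissue. It is known for binding Wnt ligands and their receptors on the planar polarity branch of Wnt signalling, for dampening the response of fibroblasts to TGF-beta, and for lowering collagen deposition.

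Cthrc1 itself was read in every WT library and was at or near 0 in every Cthrc1-/- library. The WT values were 27.0, 21.8 and 21.1 FPKM on day 0 and 106, 95.5 and 74.0 FPKM on day 7. In Cthrc1-/- dermis the counts were 0, 15 and 0 on day 0 and 12, 0 and 4 on day 7. All 12 libraries therefore went with their genotype labels. The fitted log2 change was -10.10 (SE 0.87, edgeR adjusted p = 0.00099), a value that depends on the small prior count edgeR adds to zero counts.

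Some libraries stood apart in their makeup. Total counts ran from 48329668 to 76938132 per sample, and log2 CPM of replicates correlated at 0.863 to 0.969. The summed FPKM of 23 hair follicle markers was 41.4 to 50.3 in WT day 0 and 313, 6821 and 16187 in Cthrc1-/- day 0, while on day 7 the genotypes overlapped. Replicate 3 of Cthrc1-/- day 0 held both that highest hair sum and the lowest dermal fibroblast sum, 422 FPKM against 5242 to 6839 in WT day 0. The fibroblast sum includes Col1a1, Col1a2 and other matrix genes, so it is not independent of the collagen values given below. On day 7 the neutrophil sum ran from 42.5 to 5114 FPKM among the WT libraries. All 12 fibroblast markers of the labelled dermis were detected, and the 13 epidermal keratinocyte markers also summed to 2689 to 12050 FPKM in every library. In bulk tissue, fewer cells of a type and less RNA per cell cannot be told apart.

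Besides Cthrc1, 12 of 14312 genes were called for the shared effect (0.0838%), 7 of them higher in Cthrc1-/- dermis (0.0489%) and 5 lower (0.0349%). The balance of directions varied with the fit: limma on log2(FPKM + 1) called 32 higher and 7 lower, edgeR with 4 group means 59 and 20, and edgeR without replicate 3 of WT day 7 20 and 19. An unadjusted p under 0.05 was found for 2338 genes (16.3%). Apart on both days in the same direction were 361 genes (2.52%), 239 higher (1.67%) and 122 lower (0.852%), with a median absolute log2 change of 0.67 against 0.21 over all genes tested. Both conditions were met by 11 genes (0.0769%). Of these, 10 are described. The higher ones were the pseudogenes Gm20305, Gm12191, Eif3s6-ps2, Gm14567 and Tmem181b-ps and the coding gene Dact2, and the lower ones were Polr2k, Rpl30, Ipmk and Gm49284. In 10 of the 11, all but Ipmk, the 6 Cthrc1-/- values also lay wholly to one side of the 6 WT values with the days pooled, which held for 119 genes in all (0.831%).

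**Figure D1:**
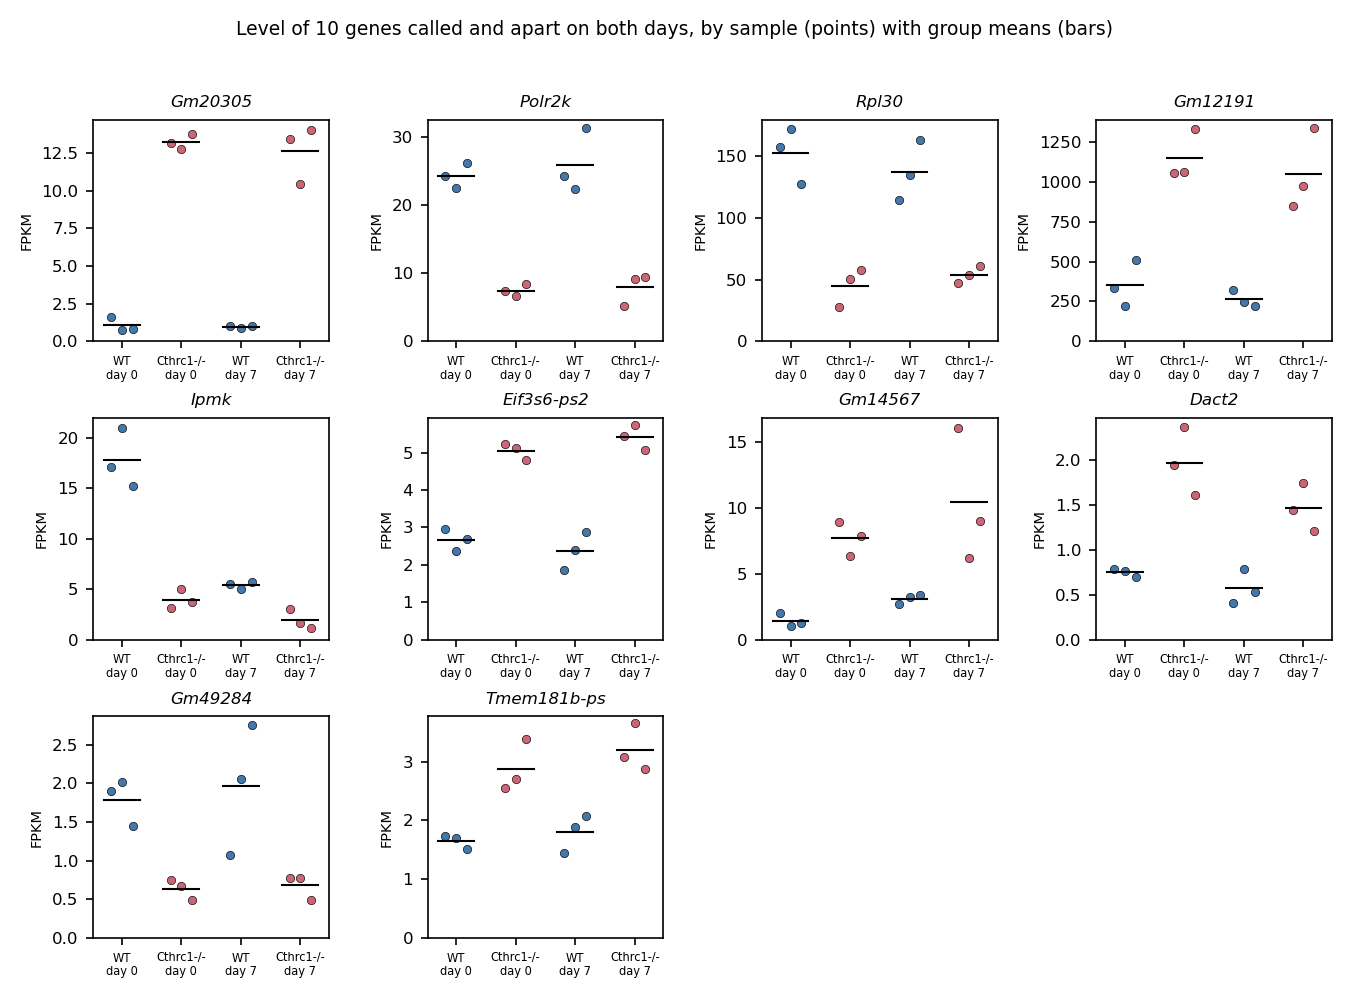
FPKM of 10 genes that were called and apart on both days, on a linear axis from 0. Each point is 1 sample, each bar the mean of 3, blue is WT and red is Cthrc1-/-. Red and blue points do not overlap within a day in any panel, and Gm20305 sits at 10.5 to 14.1 in Cthrc1-/- dermis and at 0.768 to 1.604 in WT.

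The calls rested unevenly on single libraries. Leaving out replicate 3 of WT day 7 gave 39 calls and leaving out replicate 3 of Cthrc1-/- day 0 gave 21. Only 3 calls were left without replicate 1 of WT day 0, replicate 1 of Cthrc1-/- day 0 or replicate 2 of Cthrc1-/- day 0, and those were Gm20305, Polr2k and Rpl30 each time. The number of calls was between 4 and 7 without replicate 2 or 3 of WT day 0, replicate 2 of WT day 7, or replicate 1 or 2 of Cthrc1-/- day 7. Gm20305, Polr2k and Rpl30 stayed called in all 24 other fits that tested each gene singly, and none of the 11 genes changed direction in those fits. A fit that summed genes with their near-identical copies is given below. Gm14567 and Eif3s6-ps2 were each called in 4 of the 12 fits that left out 1 library, Gm49284 in 2 and Tmem181b-ps in 1, with adjusted p up to 0.142.

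The gene with the smallest p was Gm20305 (ENSMUSG00000103979, chr1:180854282-180854458 on GRCm38, minus strand), annotated as a processed pseudogene, a copy of a spliced messenger RNA written back into the genome. Its WT values were 1.604, 0.768 and 0.819 FPKM on day 0 and 0.985, 0.905 and 0.990 FPKM on day 7. Its Cthrc1-/- values were 13.2, 12.8 and 13.7 FPKM on day 0 and 13.4, 10.5 and 14.1 FPKM on day 7. The 2 genotypes were far apart, and within each genotype the values of the 2 days lay close together. The log2 change was 3.51 (SE 0.22, edgeR adjusted p = 7.92e-05). The counts behind it were 8 to 17 per WT library and 130 to 188 per Cthrc1-/- library.

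Gm20305 copies Polr2k (ENSMUSG00000045996, chr15:36174010-36177010, plus strand), which encodes a small zinc-binding subunit shared by RNA polymerases I, II and III, and Polr2k was the called gene with the smallest p among those lower in Cthrc1-/- dermis. Polr2k read 24.3, 22.6 and 26.2 FPKM in WT and 7.36, 6.61 and 8.44 FPKM in Cthrc1-/- on day 0. On day 7 it read 24.3, 22.3 and 31.3 FPKM in WT and 5.15, 9.22 and 9.45 FPKM in Cthrc1-/-. The log2 change was -1.80 (SE 0.16, edgeR adjusted p = 0.00106). Another Polr2k copy, Gm14567 (ENSMUSG00000080896, chrX:38969817-38969990, plus strand), was higher instead, at 1.02 to 3.39 FPKM over the 6 WT samples and 6.17 to 16.1 FPKM over the 6 Cthrc1-/- samples (log2 change 1.95, SE 0.28, edgeR adjusted p = 0.0350).

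The sequences show how little separates these genes. The coding sequence of Polr2k is 177 bases long, and the transcript that holds it has 4 exons in the genome. The annotated Gm20305 has the same 177 bases without introns and 1 mismatch, T49G, counted from the first base of the coding sequence, an identity of 99.44%. Gm14567 is 174 bases long and identical to coding bases 1 to 174 of Polr2k. The mismatched base is in capitals, and the sequences are the transcripts of the GENCODE M21 annotation of GRCm38.
Polr2k coding sequence: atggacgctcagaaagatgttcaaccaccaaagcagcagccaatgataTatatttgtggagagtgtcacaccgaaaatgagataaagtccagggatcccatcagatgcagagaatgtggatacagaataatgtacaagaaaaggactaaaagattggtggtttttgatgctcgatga
Gm20305: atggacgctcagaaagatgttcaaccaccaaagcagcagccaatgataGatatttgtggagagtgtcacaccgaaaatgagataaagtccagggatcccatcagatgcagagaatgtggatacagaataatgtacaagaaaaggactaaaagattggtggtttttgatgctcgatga
Gm14567: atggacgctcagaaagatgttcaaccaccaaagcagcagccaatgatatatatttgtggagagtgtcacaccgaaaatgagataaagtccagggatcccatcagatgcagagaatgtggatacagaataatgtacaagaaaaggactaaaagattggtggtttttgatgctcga

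Rpl30 was lower and its copy Gm12191 higher in Cthrc1-/- dermis, as were Polr2k and Gm20305. Rpl30 (ENSMUSG00000058600, chr15:34440505-34443640, minus strand) encodes a protein of the large ribosomal subunit. It read 157, 172 and 127 FPKM in WT and 27.5, 50.1 and 57.8 FPKM in Cthrc1-/- on day 0. The day 7 values were 115, 135 and 163 FPKM in WT and 47.5, 53.6 and 61.0 FPKM in Cthrc1-/-. The highest Cthrc1-/- value thus lay below the lowest WT value on both days (log2 change -1.64, SE 0.17, edgeR adjusted p = 0.00376). The processed pseudogene Gm12191 (ENSMUSG00000083061, chr11:49678710-49679057, minus strand) read 334, 221 and 510 FPKM in WT and 1058, 1061 and 1331 FPKM in Cthrc1-/- on day 0. Day 7 gave 321, 249 and 220 FPKM in WT and 849, 973 and 1335 FPKM in Cthrc1-/-. Its log2 change was 1.74 (SE 0.22, edgeR adjusted p = 0.0181) and the call was lost without replicate 1 of WT day 0, replicate 1 or 2 of Cthrc1-/- day 0, or replicate 2 of either day 7 group (adjusted p up to 0.0672).

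Rpl30 and Gm12191 are identical at 99.71% of the 348 bases they share. A fragment that covers none of the differing bases matches both genes.

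Because reads of such copies cannot be divided with certainty, the counts of each coding gene were summed with those of its copies (annotated genes of at least 95% identity over at least 80% of the shorter transcript) and tested again, a step chosen after the values had been seen. For Rpl30 with 12 copies the sum was not called. The sum was 763, 775 and 765 CPM (counts scaled to a common library size) in WT and 697, 636 and 708 CPM in Cthrc1-/- on day 0, and 598, 562 and 610 CPM in WT and 543, 553 and 697 CPM in Cthrc1-/- on day 7. The Cthrc1-/- sums lay below the WT sums on day 0 and overlapped them on day 7 (log2 change -0.08, SE 0.09, edgeR adjusted p = 0.654). Within that sum, Rpl30 itself held 63.0 to 82.6% of the counts in WT libraries and 14.3 to 30.6% in Cthrc1-/- libraries. Another copy, Rpl30-ps10, stood out in replicate 1 of the Cthrc1-/- groups alone, at 109 CPM on day 0 and 65.6 CPM on day 7 against 3.41 to 5.99 CPM in the other Cthrc1-/- libraries and 9.51 to 27.2 CPM in WT.

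For Polr2k with 5 copies, part of the difference remained in the sum. The sum was 19.8, 18.3 and 21.3 CPM in WT and 10.9, 9.44 and 10.2 CPM in Cthrc1-/- on day 0. On day 7 it was 19.7, 15.9 and 21.2 CPM in WT and 9.04, 9.45 and 10.7 CPM in Cthrc1-/-. These groups did not overlap on either day, and the log2 change was -0.96 (SE 0.11, edgeR adjusted p = 0.0163), against -1.80 for Polr2k alone. Polr2k held 92.6 to 95.9% of its sum in WT libraries and 36.8 to 63.7% in Cthrc1-/- libraries. With 9 coding genes summed with their copies in this way, the count of calls besides Cthrc1 went from 12 to 2, the Polr2k sum and Ipmk. Of the genes called before, 4 have no copies in these sums, and their own log2 changes and unadjusted p hardly moved: Ipmk stayed at -1.91 while its edgeR adjusted p went from 0.0226 to 0.0450, and Dact2 (1.29), Snora33 (-5.58) and Gm49284 (-1.56) each came to an edgeR adjusted p of 0.0799. For these 4 it was the adjustment over all genes that changed.

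**Figure D2:**
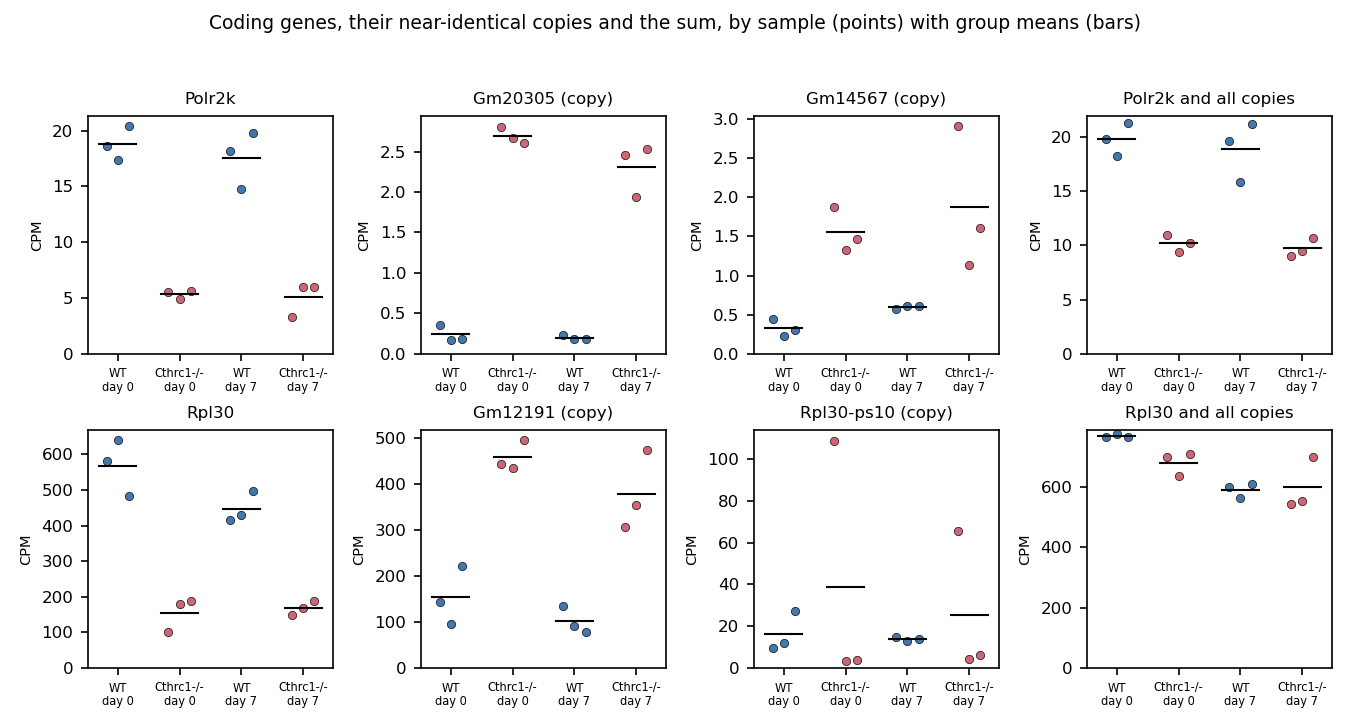
CPM of Polr2k and Rpl30 (left), of their copies (middle) and of the gene summed with all its copies (right), by sample with the mean of 3 as a bar. Blue is WT and red is Cthrc1-/-. The Polr2k sum stays lower in Cthrc1-/- dermis on both days, while the Rpl30 sum overlaps between genotypes on day 7.

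Polr2k and Rpl30 both lie near Cthrc1, which is at chr15:39076932-39087121. Polr2k starts 2.90 Mb and Rpl30 starts 4.64 Mb before it. The other called gene in this stretch, Gm49284 (ENSMUSG00000114995, chr15:31621972-31624035, plus strand), an unclassified transcript, starts 7.45 Mb before Cthrc1. It read 1.45 to 2.02 FPKM in WT and 0.493 to 0.753 FPKM in Cthrc1-/- on day 0, and 1.07 to 2.76 FPKM in WT and 0.494 to 0.780 FPKM in Cthrc1-/- on day 7. The groups did not overlap, but the call (log2 change -1.56, SE 0.24, edgeR adjusted p = 0.0398) was kept in only 7 of 23 other fits. Gm49284 met the filter of a mean FPKM of at least 1 only through its WT values. Without that filter its edgeR adjusted p was 0.0844.

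Within 10 Mb of the Cthrc1 start, 52 other genes were tested, and 3 were called (5.77%), against 9 of the 14260 other genes (0.0631%). With copies summed, 1 was called, the Polr2k sum. On chr15 beyond 10 Mb, 1.70% of 528 genes were apart and 0 were called by edgeR. There 91 had an unadjusted edgeR p under 0.05 (17.2%), against 16.3% over all genes and 32.7% within 10 Mb. DESeq2 called 35 of the 528, against 5.55% over all genes and 12 of the 52. The limma fit called 2 of the 528, against 39 of 14312 over all genes and 3 of the 52. Apart on both days within 10 Mb were 8 of the 52 (15.4%), against 2.48% of the other genes. Besides the called genes the lower ones were Snhg18, a host transcript of small nucleolar RNA (log2 change -1.44, SE 0.23, edgeR adjusted p = 0.0516), and Cpq, a secreted carboxypeptidase (-1.15, SE 0.29, edgeR adjusted p = 0.177). Snhg18 read 17.99 to 24.98 FPKM over the 6 WT samples and 3.33 to 12.03 FPKM over the 6 Cthrc1-/- samples. The higher ones were Emc2, a subunit of the membrane protein insertion complex of the endoplasmic reticulum (0.43, SE 0.07, edgeR adjusted p = 0.0736), Rida (0.62, edgeR adjusted p = 0.216) and Zfp706 (0.20, edgeR adjusted p = 0.296). Genes next to Cthrc1 were not called by edgeR, though their values were not alike. Gm49786, a long noncoding RNA that starts at -0.0365 Mb from the Cthrc1 start, had a log2 change of -1.56 (SE 0.31, edgeR adjusted p = 0.113) and was not apart on both days. Fzd6, a Frizzled receptor, stood at -0.08 on the log2 scale (edgeR adjusted p = 0.840), Slc25a32, a mitochondrial folate carrier, -0.46 (edgeR adjusted p = 0.168), and Dcaf13 -0.08 (edgeR adjusted p = 0.629).

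**Figure D3:**
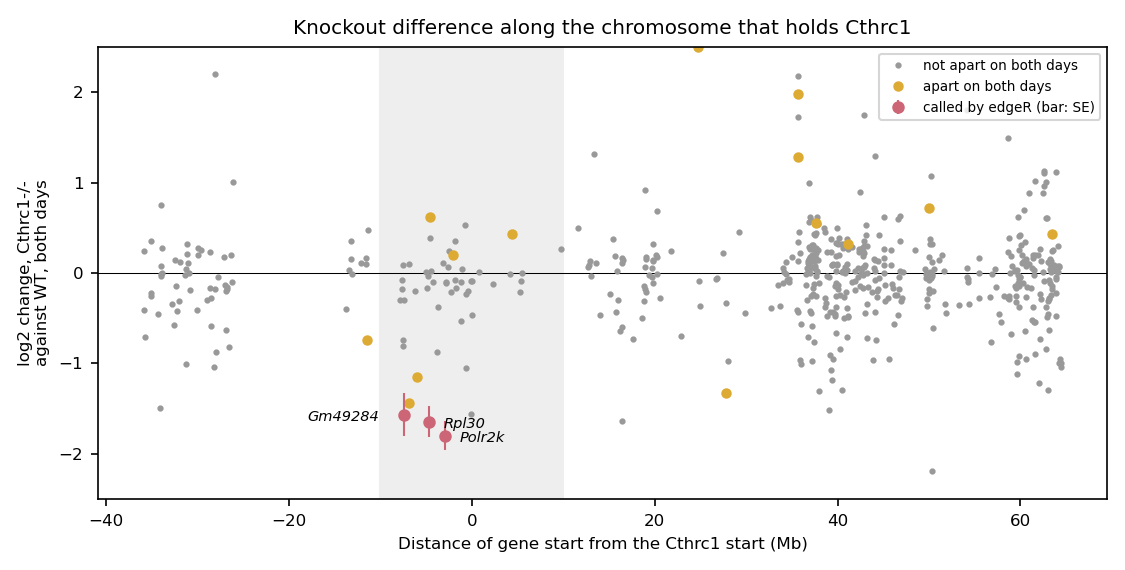
Shared log2 change of the tested genes of chr15 against the distance of their start from the Cthrc1 start in Mb, with the 10 Mb on either side shaded and Cthrc1 left out. Red points with SE bars are the 3 called genes, Gm49284, Rpl30 and Polr2k, all on the same side of Cthrc1 at -1.56 to -1.80. Past the vertical limit of 2.5 lie 15 genes.

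Processed pseudogenes were then set beside the position of the coding gene they match best. Of the 1025 processed pseudogenes tested, 18 were apart and higher in Cthrc1-/- dermis (1.76%), 0 apart and lower, and 5 called (0.488%), while among 12422 protein-coding genes 196 were higher (1.58%) and 114 lower (0.918%). For 21 processed pseudogenes the best coding match lay within 10 Mb of Cthrc1. Of these, 6 were apart and higher (28.6%) and 4 called, with a median log2 change of 0.39. For 913 the best match lay elsewhere, and 10 were apart and higher (1.10%) and 1 called, with a median of 0.09. Several of the 21 share a parent gene, so they are not independent of each other. The split was not set in advance, and the 4 called were already among the called genes described above. These shares therefore restate those calls in part and are no separate support for them.

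The 6 were Gm20305, Gm14567, Gm12191, Eif3s6-ps2 and a pair of copies of Ywhaz, Gm14287 and Gm4202. Eif3s6-ps2 copies Eif3e, a subunit of translation initiation factor eIF3, at 95.96% identity. It read 1.85 to 2.96 FPKM over the 6 WT samples and 4.81 to 5.74 FPKM over the 6 Cthrc1-/- samples (log2 change 0.97, SE 0.14, edgeR adjusted p = 0.0347). Eif3e itself differed by -0.02 on the log2 scale (SE 0.08, edgeR adjusted p = 0.929) and held 95.5 to 97.8% of the counts summed with its copies in every library. Gm14287 (1.75, edgeR adjusted p = 0.0736) and Gm4202 (0.57, edgeR adjusted p = 0.125) missed the threshold, as did Ywhaz, a 14-3-3 adaptor protein (-0.21, edgeR adjusted p = 0.510).

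Other called genes lay on other chromosomes. Ipmk (ENSMUSG00000060733, chr10:71347763-71433327, plus strand) encodes inositol polyphosphate multikinase, which makes higher inositol phosphates. On day 0 it read 17.1, 21.0 and 15.2 FPKM in WT and 3.10, 5.01 and 3.73 FPKM in Cthrc1-/-. At day 7 the values were 5.48, 5.00 and 5.69 FPKM in WT and 2.99, 1.68 and 1.11 FPKM in Cthrc1-/-. The genotypes were apart within each day, but the highest Cthrc1-/- value of day 0 lay at the level of the lowest WT value of day 7. The log2 change was -1.92 (SE 0.25, edgeR adjusted p = 0.0226), and the call was lost without replicate 1 or 3 of WT day 0, replicate 1 or 2 of Cthrc1-/- day 0 or replicate 2 of Cthrc1-/- day 7 (adjusted p up to 0.0892). It was also lost when the hair follicle score, the mean log2(FPKM + 1) of the hair follicle markers, was a covariate (edgeR adjusted p = 0.144). On day 0 the hair follicle sum was higher in every Cthrc1-/- library than in every WT library. A fit with that covariate therefore cannot fully tell genotype from hair follicle content.

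Dact2 (ENSMUSG00000048826, chr17:14195052-14204304, minus strand) encodes a Dishevelled-binding protein that modulates Wnt and TGF-beta signalling, and it was the only coding gene called higher. It read 0.783, 0.767 and 0.703 FPKM in WT and 1.94, 2.37 and 1.61 FPKM in Cthrc1-/- on day 0. Its day 7 values were 0.406, 0.787 and 0.533 FPKM in WT and 1.44, 1.75 and 1.21 FPKM in Cthrc1-/-. All 6 Cthrc1-/- values lay above all 6 WT values (log2 change 1.29, SE 0.19, edgeR adjusted p = 0.0350). Dact2 met the filter of a mean FPKM of at least 1 only through its Cthrc1-/- values. Group means were 0.751 and 0.575 FPKM in WT and 1.97 and 1.47 FPKM in Cthrc1-/- on day 0 and day 7. Without that filter the call was lost (edgeR adjusted p = 0.0694). The call was lost with the hair follicle score as a covariate (adjusted p = 0.102), and without any 1 of the day 0 libraries other than replicate 3 of Cthrc1-/- or replicate 1 or 2 of Cthrc1-/- day 7 (adjusted p up to 0.126). The related Dact1 (-0.98, edgeR adjusted p = 0.198) and Dact3 (-0.32, edgeR adjusted p = 0.475) were not called.

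Tmem181b-ps, an unprocessed pseudogene of Tmem181a, read 1.44 to 2.08 FPKM in the 6 WT samples and 2.54 to 3.66 FPKM in the 6 Cthrc1-/- samples (log2 change 0.73, SE 0.11, edgeR adjusted p = 0.0434), and the log2 change of the pair summed was 0.02 (edgeR adjusted p = 0.933). The called gene that was not apart was Snora33, a small nucleolar RNA inside Rps12, at 2 counts in each of the 6 Cthrc1-/- libraries, 72 to 136 counts in 5 WT libraries and 2 counts in replicate 2 of WT day 0 (-5.58, edgeR adjusted p = 0.0366). It stayed called in 8 of 24 other fits, and without that WT library its edgeR adjusted p was 2.20e-06. Libraries were made from poly(A)-selected RNA, and reads of Snora33 and of Rps12, on the same strand, overlap. Rps12 itself was apart and higher (0.32, edgeR adjusted p = 0.226).

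The shared effect was compared with each day on its own, in a fit with 4 group means. On day 0 alone, 826 genes were called (5.77%), including all 11 of the genes called and apart. On day 7 alone, 2 genes were called (0.014%), of which 1, Gm20305, was among the 11 (edgeR adjusted p = 0.0083 on day 7). For Polr2k the log2 change was -1.82 on day 0 and -1.78 on day 7, and for Gm20305 it was 3.49 and 3.54. Ipmk had -2.27 and -1.56. The interaction of genotype and day was not called by edgeR, DESeq2 or limma for any of the 10 genes described, and 0 of them had an unadjusted edgeR p under 0.05. Across all other genes the day 0 and day 7 log2 changes, which share no sample, correlated weakly (Pearson's r 0.16, Spearman's rho 0.15 over 14312 genes, which are not independent). Besides the 361 genes, 147 (1.03%) were apart on both days in opposite directions.

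**Figure D4:**
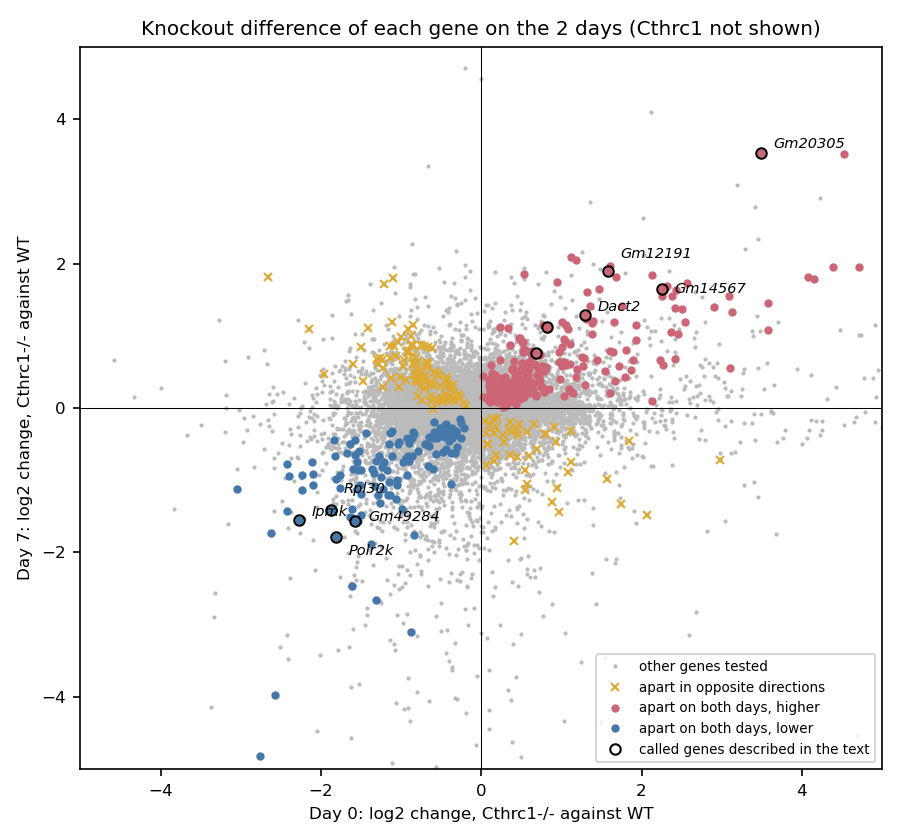
Log2 change on day 7 against log2 change on day 0 for the tested genes, with 173 genes outside the axis limits of 5. Red and blue points are the 239 and 122 genes apart on both days, yellow crosses are genes apart in opposite directions, and black rings are the 10 called genes described. Gm20305 lies at the upper right with nearly the same change on both days.

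Gene lists were chosen with earlier results of these data known and are given as counts. Of 12 RNA polymerase II subunits, edgeR called 0 higher and 1, Polr2k, lower, and the median log2 change was 0.00. At an unadjusted edgeR p under 0.05, 1 of them was higher and 2 were lower, and DESeq2 called 2 lower. Of 79 cytoplasmic ribosomal protein genes, edgeR called 1, Rpl30, lower. In that list 68 had a log2 change above 0 (6747 of 14312 over all genes), with a median of 0.13 against -0.02 over all genes tested. An unadjusted edgeR p under 0.05 was found for 8 higher and 2 lower, and DESeq2 called 1 higher and 1 lower. Of 23 assembly factors of respiratory complex IV, 0 were called by edgeR, with 1 at an unadjusted p under 0.05, 1 called by DESeq2 and 0 by limma, and 0 were apart on both days. Over all genes tested, edgeR called 0.0838%, and 16.3% had an unadjusted edgeR p under 0.05. DESeq2 called 5.55%, and 2.52% were apart on both days in the same direction.

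In the lists made for the pathways Cthrc1 is known for, edgeR and limma each called 0 genes. Dact2, called by edgeR and by limma on log2(FPKM + 1), is in none of these lists. Among 30 tested genes of the Wnt planar polarity branch, 2 were apart and higher, 4 had an unadjusted edgeR p under 0.05 and DESeq2 called 3. Over all genes tested, 1.67% were apart and higher, 16.3% had such a p and DESeq2 called 5.55%. Vangl2, a core membrane protein of planar polarity, read 4.78, 5.12 and 5.29 FPKM in WT and 5.84, 10.1 and 12.3 FPKM in Cthrc1-/- on day 0, and 4.16, 3.01 and 3.34 FPKM in WT and 9.69, 5.64 and 9.68 FPKM in Cthrc1-/- on day 7. It was higher in every Cthrc1-/- sample (log2 change 0.96, SE 0.20), yet missed the threshold (edgeR adjusted p = 0.119). In the Cthrc1-/- libraries, taken in the same order, the hair follicle sum was 313, 6821 and 16187 FPKM on day 0 and 4099, 582 and 6389 FPKM on day 7, so Vangl2 was lowest on each day where that sum was lowest. The WT libraries did not share that pattern. In WT day 7 the hair follicle sum was 1800, 4625 and 4155 FPKM, and Vangl2 was highest where that sum was lowest. In WT day 0, at a hair follicle sum of 41.4 to 50.3 FPKM, every Vangl2 value lay above those of WT day 7. The part of hair follicle content in the Vangl2 values was not settled by this. With the hair follicle score as a covariate the Vangl2 log2 change was 0.86 (SE 0.26, edgeR adjusted p = 0.416). Hair follicle content went with genotype on day 0, so that fit cannot settle it either. Fzd7, a Frizzled receptor, had 0.36 (SE 0.11, edgeR adjusted p = 0.212). Of 16 canonical Wnt targets 0 were apart, 3 had an unadjusted edgeR p under 0.05 and DESeq2 called 0, with a median log2 change of -0.0025. Of 29 TGF-beta pathway genes 1, the receptor gene Tgfbr1, was apart and lower (-0.21, edgeR adjusted p = 0.243). In that list 6 genes, all lower, had an unadjusted edgeR p under 0.05, DESeq2 called 3, and the median was -0.22. Over all genes 0.852% were apart and lower, 9.33% had an unadjusted p under 0.05 and were lower, and DESeq2 called 2.72% lower.

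Collagen and matrix genes had lower values in Cthrc1-/- dermis, but edgeR and limma called 0 of them. Of 46 tested, 45 had a log2 change below 0, with a median of -0.83 (-1.23 on day 0 and -0.60 on day 7). Of the 46, 31 were lower with an unadjusted edgeR p under 0.05 (9.33% of all genes), DESeq2 called 16 lower (2.72% of all genes), and 6 were apart and lower on both days (0.852% of all genes). Col1a1, a chain of type I collagen, read 2410, 3122 and 2211 FPKM in WT and 1033, 555 and 136 FPKM in Cthrc1-/- on day 0. Day 7 values were 2293, 1887 and 1525 FPKM in WT and 1260, 884 and 1065 FPKM in Cthrc1-/-. The groups did not overlap (log2 change -1.58, SE 0.45), but the spread among the Cthrc1-/- libraries of day 0 was wide, and the edgeR adjusted p was 0.199. With the hair follicle score as a covariate the log2 change was -0.92 (SE 0.41, edgeR adjusted p = 0.704). Hair follicle content went with genotype on day 0, so this drop is no measure of its share in the Col1a1 values. The others were Col1a2, Col5a1, Sparc, a collagen-binding matrix protein, and P3h1 and P4ha2, which hydroxylate collagen prolines (-1.20 to -1.601, edgeR adjusted p 0.131 to 0.222).

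Markers of other cell types moved with several of these values. The fibroblast sum was apart and lower on day 0 but overlapped on day 7, at 3814 to 5605 FPKM in WT and 2422 to 3843 FPKM in Cthrc1-/-. All 12 markers had a log2 change below 0 (median -0.85), and their list overlaps with the matrix genes. The same held for all tested markers of skeletal muscle (13, median -1.44), macrophages (12, -1.06), smooth muscle and pericytes (7, -0.53), Schwann cells (6, -0.37) and erythrocytes (5, -1.26). All 23 hair follicle markers and the 1 B cell marker tested were above 0, and the other lists were mixed. Of 17 marker sums, the erythrocyte sum was the only one apart on both days, at 1273 to 1572 FPKM in WT and 153 to 1263 FPKM in Cthrc1-/- on day 0 and at 426 to 947 and 125 to 265 FPKM on day 7. Its largest contributor, Hbb-bs, a haemoglobin chain, was apart and lower (-1.30, edgeR adjusted p = 0.245). The part of the fibroblast and erythrocyte levels in the matrix values was not tested. With the hair follicle score as a covariate 5 genes were called besides Cthrc1, Gm20305, Polr2k, Rpl30 and Eif3s6-ps2 among them. That score went with genotype on day 0, which limits this fit as well.

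**Figure D5:**
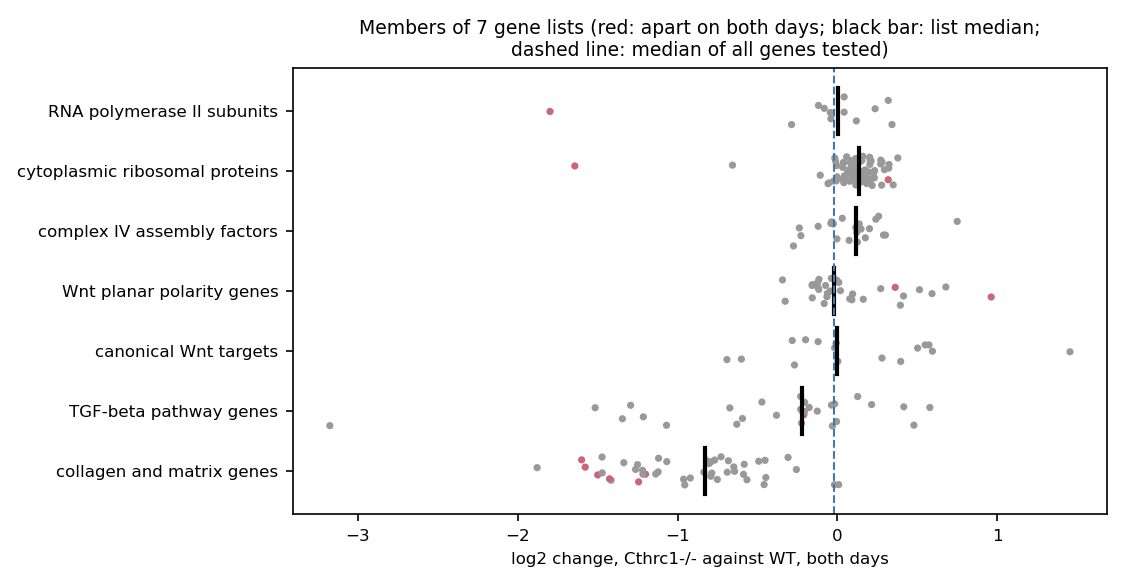
Shared log2 change of each tested member of 7 gene lists, with the list median as a black bar and the median of all genes tested, -0.02, as a dashed line. Red points are members apart on both days. Polr2k and Rpl30 stand away from the other members of their lists, and the collagen and matrix list has its median at -0.83.

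The 12 genes that came next by p among those apart on both days had edgeR adjusted p between 0.0516 and 0.0745, and 9 of the 12 were higher. Defb6, a beta-defensin, read 526, 490 and 399 FPKM in WT and 1830, 1500 and 817 FPKM in Cthrc1-/- on day 0, and 138, 287 and 335 FPKM in WT and 755, 1053 and 647 FPKM in Cthrc1-/- on day 7 (log2 change 1.56, SE 0.25, edgeR adjusted p = 0.0516). Car2, carbonic anhydrase 2, read 0.548 to 2.57 FPKM over the 6 WT samples and 3.76 to 12.3 FPKM over the 6 Cthrc1-/- samples (2.14, SE 0.34, edgeR adjusted p = 0.0516). For Ehf, an epithelial transcription factor, the log2 change was 1.898 (edgeR adjusted p = 0.0745), for Gpx2, a glutathione peroxidase of epithelia, 1.74 (edgeR adjusted p = 0.0686), and for Rassf10 1.96 (edgeR adjusted p = 0.0516). These genes missed the threshold. The epidermal keratinocyte sum was lower in Cthrc1-/- on day 0, at 4935 to 11349 FPKM against 11502 to 12050 FPKM, and overlapped on day 7. Of its 13 markers, 6 had a shared log2 change above 0 and 7 below, with medians of -0.39 on day 0 and 0.29 on day 7. The hair follicle sum, also epithelial, was higher in Cthrc1-/- on day 0. The part of these cell types in the values above was not tested.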

How the data were processed

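RNA sequencing of 12 dermis samples was used as deposited. Per the labels' protocols, the libraries were poly(A)-selected, strand-marked and paired-end, with molecular identifiers. The submitters' processing notes name cutadapt 1.9, HISAT2 2.0.4, UMI-tools, StringTie 1.3.4d, DESeq2, edgeR and the GRCm38 build. Whether counts were collapsed on identifiers or used strand was not given in the sources used here. The authors deposited 1 table of 55401 genes that gives, for every sample, a count in whole numbers and an FPKM value. Where the count is 0 the deposited FPKM is 0.0001, taken as 0 here. Per-sample columns left unused numbered 0. Groups and replicate numbers come from the sample titles.

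Symbols, positions and transcript sequences come from GENCODE M21 on GRCm38, which holds 55141 of the table's gene IDs. The deposited counts were tested with edgeR 4.0.16 in R 4.3.3 (TMM factors, glmQLFit, two-sided glmQLFTest), with day and genotype as terms and 9 residual degrees of freedom, over the 14313 genes whose FPKM averaged 1 or more, with Benjamini-Hochberg adjustment over all of them. P-values rest on the 3 labelled biological replicates a group. SE is the absolute log2 change over the square root of F. Copies were found by blastn. On simulated counts with 200 changed genes edgeR recovered 42% at 2-fold and 92% at 4-fold with 3.60% false calls, limma 3.58.1 recovered 46% and 91% with 3.52%, and DESeq2 1.42.0 recovered 68% and 98% with 19.0%. These counts were drawn for each gene independently with edgeR's fitted dispersions, so they held no shared differences in library makeup. There limma took log2(CPM + 1). The shares need not hold for the real libraries.

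Named genes were those called and apart on both days, of which 1 is not reported here. The members and lists were chosen with earlier results of these data known. Alternatives covered tool, scaling, filter, pseudocount, counts divided by 4 (multiples of 4 are overrepresented in the deposited counts), group means, robust dispersion, a replicate block, a hair follicle score, each sample left out and, chosen after the data were seen, copies summed. Replicate numbers recur in all groups, but same-numbered samples correlated in their deviations at -0.23 to 0.43, over 0.1 in only 5 of 18 pairs, so they were not taken as pairs.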

Additional observations from a re-analysis of the deposited data

Results flagged for a closer look

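Against the 361 genes apart in the same direction, 147 genes (1.03%) were apart on both days in opposite directions, so that every Cthrc1-/- sample lay to one side of WT on day 0 and to the other on day 7. Of these, 101 were lower on day 0 and higher on day 7, and 46 the reverse. For 146 of them the difference between the days was not called, and 1 had a called interaction of genotype and day. That gene was Apbb2, an adaptor that binds the amyloid precursor protein, at 2.46 ± 0.025 FPKM in WT and 0.409 ± 0.154 FPKM in Cthrc1-/- on day 0 (SD, n = 3 a group). On day 7 it stood at 0.708 ± 0.128 FPKM in WT and 2.67 ± 0.296 FPKM in Cthrc1-/-. Its log2 change went from -2.67 to 1.81 (edgeR adjusted p of the interaction = 0.0150). The next by p were Abhd11os (-0.999 and 0.984), Nhsl1 (-1.49 and 0.85), Slc24a3 (-1.42 and 1.10), Gm12115 (2.07 and -1.48) and Ahdc1 (0.89 and -1.30), with edgeR adjusted p of 0.133 to 0.137. None of the 23 hair follicle markers was among the 147, which says little, since only 1.03% of all genes were. The part of hair follicle content in these genes was not tested.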

How the results depend on the processing

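With copies summed, the Rpl30 sum was not called (edgeR adjusted p = 0.654), and Gm20305 was counted within the Polr2k sum, which was lower. In the 24 other fits, which tested each gene singly, Gm20305, Polr2k, Rpl30 and Cthrc1 stayed called. None of these 4 or of the genes in the next sentence changed the direction of its shared log2 change in those fits. Gm12191 and Ipmk stayed called in 18 of 24, Dact2 in 14 of 23, Eif3s6-ps2 in 13 of 23, Gm14567 in 13 of 24, Tmem181b-ps in 8 of 23, Snora33 in 8 of 24 and Gm49284 in 7 of 23. On counts simulated with edgeR's dispersions DESeq2 made 19.0% false calls, a share that was not measured for these libraries. The count of 12 called genes became 794 with DESeq2, 79 with 4 group means, and 39 and 23 with limma on log2(FPKM + 1) and log2(FPKM + 0.1). It became 5 without the FPKM filter, 5 with the hair follicle score and 2 with copies summed. With each sample left out in turn it ran from 3 to 39, the count within 10 Mb of Cthrc1 from 2 to 4, the count called and apart from 3 to 37, and the count apart from 397 to 1216, which must grow as fewer samples have to separate. Within 10 Mb, DESeq2 called 12 genes, 4 group means 5 and copies summed 1, against 3. The count of 361 apart genes became 119 with the days pooled and 202 at a mean FPKM of at least 5, where fewer genes were tested. The fit with the replicate number as a block called 6 genes, all of them among the 11. The labels tie the numbers to no shared animal, day or batch, but 7 of 12 samples correlated best with a sample of their own number, a hint from the data and not from the design. The interaction reversed in sign, without a call in either fit, for Gm20305 (-0.0233 with DESeq2, -0.0195 with limma), Polr2k (-0.0254, -0.0346) and Gm49284 (-0.0490, -0.0154). The cause of these changes was not tested unless stated.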

Other observations

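Beyond the named genes, some gene families held several members apart on both days, without a call by edgeR. They were picked after their values had been seen, so they are given as counts and values only. Over all genes tested, 1.67% were apart and higher and 0.852% apart and lower. Of 14 small proline-rich (Sprr) genes annotated as protein-coding, which build the cornified envelope of keratinocytes, all 14 had a shared log2 change above 0, with a median of 2.36 (4.57 on day 0 and 1.297 on day 7), and 4 were apart and higher, among them Sprr4 (2.15, SE 0.40) and Sprr2a1 (1.903, SE 0.424). Reads of the near-identical Sprr2a genes cannot be divided with certainty. Of 21 late cornified envelope (Lce) genes, 20 were above 0 and 3 apart and higher, Lce3c, Lce3d and Lce3f. Krt17, a keratin of appendages and activated epidermis, read 758 to 824 FPKM in WT and 1539 to 2455 FPKM in Cthrc1-/- on day 0. On day 7 it read 434 to 861 FPKM in WT and 949 to 1050 FPKM in Cthrc1-/- (0.81, SE 0.19, edgeR adjusted p = 0.160). Of 4 beta-defensin genes, 2 were apart and higher, Defb6 and Defb14.

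In the other direction, all 7 genes with a symbol of the prolyl 3- and 4-hydroxylase families (P3h, P4ha) had a log2 change below 0. These were taken by symbol and not by enzyme activity. Their median was -1.20, and 4 were apart and lower: P3h1 (-1.20, SE 0.27), P3h3 (-1.02, SE 0.24), P3h4 (-0.98, SE 0.22) and P4ha2 (-1.50, SE 0.40), with edgeR adjusted p of 0.131 to 0.196. All 6 fibrillar collagen genes of types I, III and V were below 0 as well, and 3 were apart. Most subunit genes of complex III, ATP synthase and cytochrome c oxidase, also without a call, lay slightly above 0. A log2 change above 0 was found for 8 of 8, 17 of 17 and 13 of 16 of them, with medians of 0.22, 0.15 and 0.26. Over all genes tested, 6747 of 14312 were above 0, with a median of -0.02. Subunits of respiratory complexes I and II were not counted. Apart and higher were 1 complex III gene, 1 ATP synthase gene and 3 cytochrome c oxidase genes, while Cox6a2, the oxidase subunit form of muscle, was apart and lower (-1.55, SE 0.42, edgeR adjusted p = 0.196). Atp5g3, the ATP synthase gene that was apart, read 58.9 to 67.0 FPKM in WT and 94.8 to 118 FPKM in Cthrc1-/- on day 0, and 77.4 to 88.7 FPKM in WT and 89.8 to 119 FPKM in Cthrc1-/- on day 7 (0.43, SE 0.12, edgeR adjusted p = 0.196).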
